A study of Mus musculus with 12 samples.

Results

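The genes described here are 10 genes of iron and heme handling: Hmox1, Blvrb, Fth1, Ftl1, Slc11a1, Trf, Tfrc, Slc40a1, Cp and Hamp. They were chosen by name, with earlier results of these data known. They are the rows of the deposited count table that carry these symbols, and all 10 were found among its 25124 genes. The series is RNA sequencing of mouse brain taken 28 days after the middle cerebral artery was occluded (MCAo), which models ischemic stroke. It asks what DKK1 (dickkopf-1), which cells secrete and which blocks Wnt receptors, does after the stroke when its expression is switched on 3 days after MCAo. The DKK1 mice carried a Gt(ROSA)26Sortm1.1(rtTA,EGFP)Nagy allele, which holds the doxycycline-dependent activator rtTA and EGFP, an Hprttm1(tetO-Dkk1)Spdl allele, which holds the Dkk1 copy under its control, and the Wnt reporter Tg(TCF/Lef1-lacZ)34Efu. The mice they were set against were wild-type C57BL6/J and had none of these alleles, so the genotypes differed in rtTA, EGFP and lacZ as well as in Dkk1. Both genotypes had the stroke and doxycycline at 200 mg/kg. There were 4 groups with 3 libraries each: the lesioned hemisphere of DKK1 mice, on the side of the occlusion, their intact hemisphere on the other side, and both hemispheres of wild-type mice likewise. The labels name no cell type to which induction was limited, and give no age and no statement on whether equal library numbers mark 1 animal, so p-values measure the spread between these libraries.

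Iron reaches brain cells bound to transferrin (Trf) through the transferrin receptor (Tfrc), is stored in shells built from ferritin heavy (Fth1) and light (Ftl1) chains, and leaves cells through ferroportin (Slc40a1) with the help of ferroxidases such as ceruloplasmin (Cp). Heme from dying cells and red blood cells is opened by heme oxygenase 1 (Hmox1), which frees iron, carbon monoxide and biliverdin, while Slc11a1 (NRAMP1) pumps metal ions out of the phagosomes of macrophages and microglia. Hepcidin, the product of Hamp, is a hormone made mainly by the liver that binds ferroportin and leads to its breakdown. Much of this control acts on the mRNA: iron regulatory proteins bind hairpins called iron-responsive elements, where they block translation from a 5′ UTR or protect a message from its 3′ UTR.

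Searched in the GENCODE M21 transcripts of GRCm38 (mm10), 4 of the 10 genes held such a hairpin: a C, 5 bases, the loop letters CAGTGN, then 5 bases able to pair with the first 5 (G with T allowed), read on the transcript's strand only. They are shown because translation or stability of these 4 messages is under iron's control, of which the counts below see the mRNA level and nothing of translation. Each is printed as DNA with 6 bases on either side and the loop in capitals. The 5′ UTR sites were these.
Fth1, chr19:9982732-9982760, plus strand: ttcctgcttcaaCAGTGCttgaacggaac
Ftl1, chr7:45459779-45459807, minus strand: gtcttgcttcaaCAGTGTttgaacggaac
Slc40a1, chr1:45925465-45925493, minus strand: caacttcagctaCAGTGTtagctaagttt
The 3′ UTR of Tfrc held 4 sites.
Tfrc site 1, chr16:32631219-32631247, plus strand: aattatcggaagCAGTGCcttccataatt
Tfrc site 2, chr16:32631598-32631626, plus strand: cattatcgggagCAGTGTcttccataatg
Tfrc site 3, chr16:32631663-32631691, plus strand: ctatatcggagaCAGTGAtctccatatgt
Tfrc site 4, chr16:32631710-32631738, plus strand: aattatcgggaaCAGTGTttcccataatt
Fth1 and Ftl1 shared the same 5 bases on each side of the loop. Of all genes with an annotated 5′ UTR, 28 of 20504 (0.137%) held a match, and of those with a 3′ UTR, 127 of 20850 (0.609%). Among 71 other iron and heme genes with a 5′ UTR, 1 held a match, Alas2.

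Libraries held between 21209920 and 26911840 counts, and 17612 genes passed the filter on low counts, all 10 iron genes among them; Hamp passed through wild-type libraries, the only ones with 10 or more of its counts. Dkk1 had 32, 7 and 44 counts in DKK1 lesioned libraries, 13, 5 and 4 in DKK1 intact libraries, and 0 in every wild-type library. Markers of microglia, oligodendrocytes, astrocytes, neurons and endothelium were present in every library with none of those genes at 0. A pair of facts about single libraries bears on what follows. On the first principal component (73.8% of the variance) wild-type lesioned library 1, at 70.9, lay among the DKK1 lesioned libraries, which ran from 62.8 to 83.8, while the other wild-type lesioned libraries were at 29.2 and 37.1. Wild-type intact libraries 1 and 2 held liver transcripts such as Alb (albumin), as given with Hamp. Values below are in CPM, the count scaled to the library's total, and are given per library in the order 1, 2, 3. Adjusted p-values are those of edgeR's quasi-likelihood test over all genes tested.

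In DKK1 mice 8 iron and heme genes were higher in the lesioned than in the intact hemisphere: Hmox1, Blvrb, Fth1, Ftl1, Slc11a1, Trf, Slc40a1 and Cp. In wild-type mice 7 of these 8 were higher by edgeR, all but Slc40a1, which passed in other fits. Of the genes that rose, Slc11a1, Hmox1 and Cp had the largest changes in both genotypes and Fth1 the smallest, and Tfrc passed the test in neither genotype. Of all genes tested, 27.5% were called higher and 22.6% lower in DKK1 mice, and 21.2% higher and 15.9% lower in wild type, so a call alone was common. The median log2 change of the 10 genes was 1.16 in DKK1 mice and 0.68 in wild type, against 0.01 and 0.01 over all genes tested. The 10 were chosen with earlier results of these data known, so their counts and medians are a description and no test. In these tissue samples a change in the number of cells of a type and a change in RNA per cell cannot be told apart. The libraries of the 2 hemispheres did not overlap for 8 of the genes in DKK1 mice, with 32.1% of all genes apart and higher, and for 7 in wild type, with 26.5%.

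**Figure D1:**
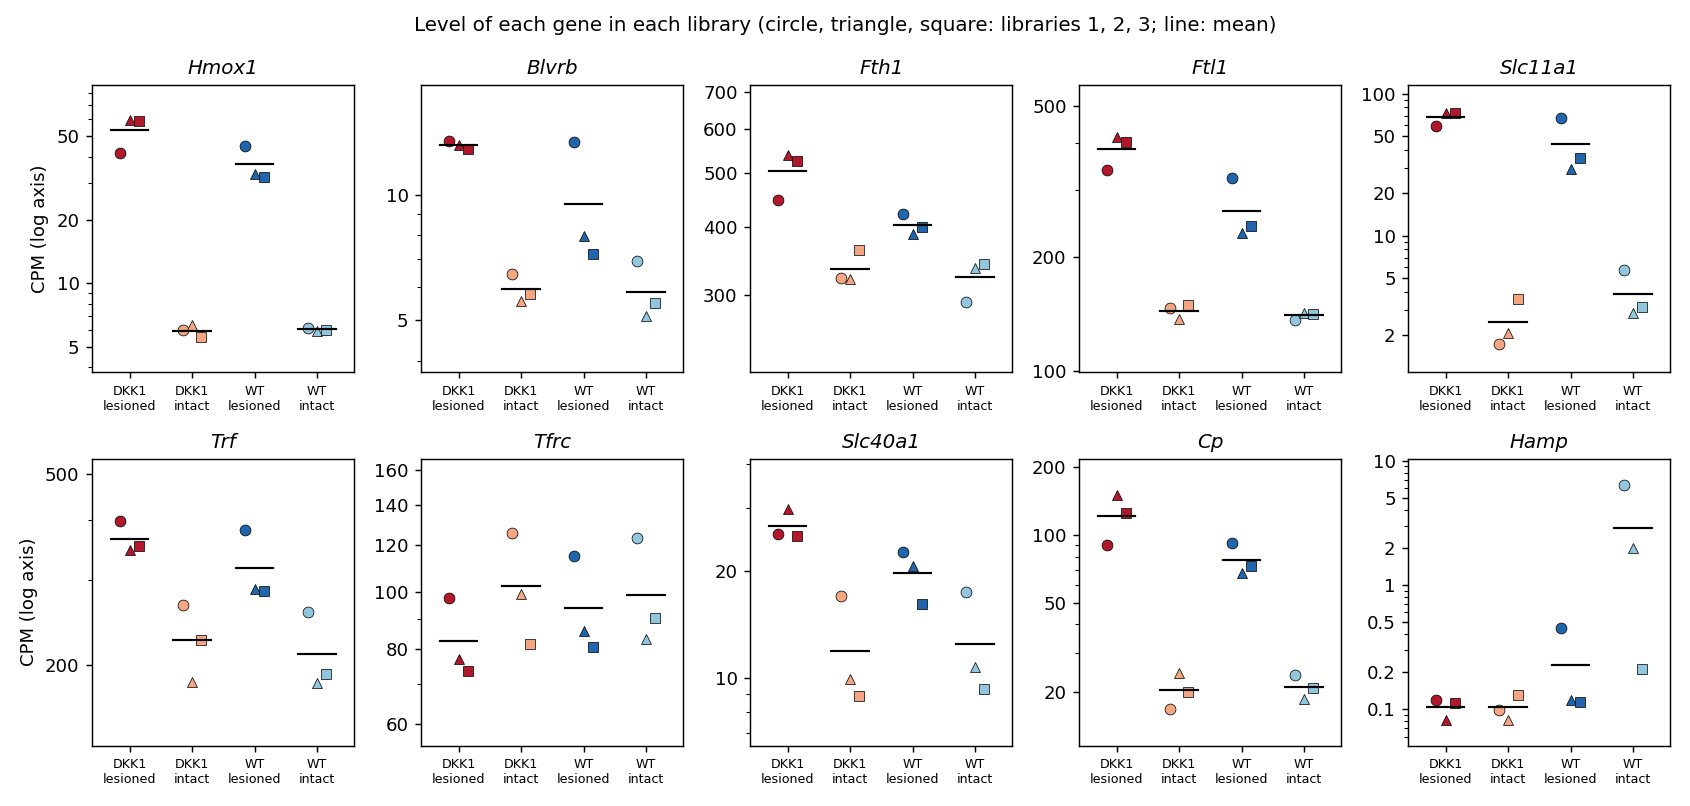
Level of each of the 10 genes in each library, in CPM on a log axis, with circles, triangles and squares for libraries 1, 2 and 3 and a line for the group mean. In the lesioned hemisphere Hmox1, Ftl1, Slc11a1 and Cp stood clear of both intact groups, and Hamp was high in wild-type intact libraries 1 and 2 (6.42 and 1.97 CPM).

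Hmox1 (chr8:75093618-75100593, plus strand), the inducible enzyme that opens the heme ring, had 41.6, 59.8 and 58.7 CPM in the DKK1 lesioned hemisphere, against 5.98, 6.31 and 5.54 in the DKK1 intact one. In wild-type mice it had 45.1, 33.1 and 31.9 CPM in the lesioned hemisphere, against 6.15, 5.94 and 5.996 in the intact one. Every lesioned library was thus more than 30 CPM and every intact one near 6, with no overlap. The log2 fold change was 3.17 ± 0.17 (SE) in DKK1 mice (adjusted p = 8.1e-07), 8.97-fold, and 2.60 ± 0.17 in wild type (adjusted p = 1.3e-05), 6.08-fold. Leaving out any 1 library kept these at 3.08 to 3.32 and 2.43 to 2.69.

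Blvrb (chr7:27447978-27465981, plus strand) encodes biliverdin reductase B, a reductase of flavins and biliverdin. It had 13.4, 13.2 and 12.9 CPM in the DKK1 lesioned hemisphere, against 6.47, 5.58 and 5.80 in the DKK1 intact one. In wild type it had 13.3, 7.97 and 7.19 CPM in the lesioned hemisphere, against 6.94, 5.13 and 5.49 in the intact one. The DKK1 lesioned libraries were alike, while in wild type library 1 was at the DKK1 level and the other pair only just above the highest intact value. On the log2 scale the change was 1.15 ± 0.21 in DKK1 mice (adjusted p = 0.00082) and 0.70 ± 0.21 in wild type (adjusted p = 0.022). The wild-type call was lost without wild-type lesioned library 1 (0.37, adjusted p = 0.082), intact library 2 (0.61, adjusted p = 0.082) or intact library 3 (0.64, adjusted p = 0.068).

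Fth1 (chr19:9982646-9985111, plus strand), the ferritin chain with ferroxidase activity, had 448, 539 and 525 CPM in the DKK1 lesioned hemisphere, against 323, 321 and 363 in the DKK1 intact one. Wild-type levels were 422, 388 and 399 CPM in the lesioned hemisphere, against 292, 337 and 342 in the intact one. The hemispheres did not overlap in either genotype, and the change was the smallest among the genes that rose. It was 0.59 ± 0.09 on the log2 scale in DKK1 mice (adjusted p = 0.00018), 1.5-fold, and 0.32 ± 0.09 in wild type (adjusted p = 0.013), 1.24-fold. The wild-type value came to 0.25 (adjusted p = 0.0501) without wild-type intact library 1.

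Ftl1 (chr7:45457944-45459886, minus strand), the chain that favours the mineral core, rose further. It had 339, 414 and 403 CPM in the DKK1 lesioned hemisphere, against 146, 137 and 150 in the DKK1 intact one. In wild type it had 322, 231 and 242 CPM in the lesioned hemisphere, against 137, 143 and 141 in the intact one. Intact libraries of both genotypes lay within a narrow band, and every lesioned library was above it. The log2 fold change was 1.42 ± 0.12 in DKK1 mice (adjusted p = 3.8e-06) and 0.92 ± 0.11 in wild type (adjusted p = 0.00017).

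The unequal rise of the chains showed in their ratio on the authors' per-length scale (TPM, transcript reads per length and library). Fth1 over Ftl1 was 1.36, 1.34 and 1.34 in DKK1 lesioned libraries, against 2.27, 2.41 and 2.50 in DKK1 intact ones. Wild-type lesioned libraries were at 1.35, 1.73 and 1.70, against 2.20, 2.43 and 2.49 in intact ones. Heavy chain mRNA thus stayed the more abundant in all 12 libraries, by less in the lesion, with wild-type lesioned library 1 at the DKK1 value. Ferritin genes have processed copies of near-identical sequence in the mouse genome, and how reads shared with them were counted is not given in the sources used here, so these levels are uncertain by that share.

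Slc11a1 (chr1:74375203-74386051, plus strand), the phagosomal metal pump of macrophages and microglia, rose further than any of the other 9 genes. It had 59.0, 73.3 and 73.1 CPM in the DKK1 lesioned hemisphere, against 1.71, 2.05 and 3.58 in the DKK1 intact one. Wild-type levels were 67.2, 29.6 and 35.0 CPM in the lesioned hemisphere, against 5.70, 2.86 and 3.12 in the intact one. Library 1 was the highest of its group in both wild-type hemispheres. On the log2 scale the change was 4.80 ± 0.39 in DKK1 mice (adjusted p = 4.7e-06), 27.8-fold, and 3.48 ± 0.36 in wild type (adjusted p = 6.7e-05), 11.2-fold.

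The markers of microglia and macrophages, taken as a sum, were also higher in the lesioned hemisphere. The summed level of 8 such markers (Aif1, Csf1r, Cx3cr1, P2ry12, Tmem119, Cd68, C1qa and Itgam) ran from 1015 to 1155 CPM in DKK1 lesioned libraries, against 207 to 254.6 in DKK1 intact ones. The sum was 1076, 647 and 772 CPM in wild-type lesioned libraries, against 330, 214 and 220 in intact ones. Among those intact libraries Slc11a1 and Blvrb were also highest in library 1. Fth1 and Ftl1 were lowest there, and Hmox1 was at 6.15, 5.94 and 5.996 CPM. All 8 rose in DKK1 mice and 7 of 8 in wild type, with median log2 changes of 2.14 and 1.79. The 6 markers of border and haemorrhage-clearing macrophages (Mrc1, Lyve1, Cd163, F13a1, Pf4 and Cbr2) summed to 41.2 to 67.1 CPM in DKK1 lesioned libraries, against 12.4 to 13.8 in DKK1 intact ones, and to 25.7 to 40.7 CPM in wild-type lesioned libraries, against 11.8 to 13.2 in intact ones. Mrc1, F13a1, Pf4 and Cbr2 rose in both genotypes. Lyve1 and Cd163, the receptor for haptoglobin-bound haemoglobin, passed in neither, with Cd163 at 0.01 in DKK1 mice and -0.44 in wild type on the log2 scale. Wild-type lesioned library 1 was the highest of its group in both lists, as it was for each of the 10 iron and heme genes. The part of these markers in the changes of Hmox1, ferritin and Slc11a1 was not tested.

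Trf (chr9:103208876-103230286, minus strand), the iron carrier that oligodendrocytes make within the brain, had 398, 347 and 354 CPM in the DKK1 lesioned hemisphere, against 267, 185 and 225 in the DKK1 intact one. In wild type it had 383, 288 and 285 CPM in the lesioned hemisphere, against 258.2, 183 and 192 in the intact one. Library 1 was the highest in each of the 4 groups, and the hemispheres did not overlap. The log2 fold change was 0.70 ± 0.16 in DKK1 mice (adjusted p = 0.0042) and 0.59 ± 0.16 in wild type (adjusted p = 0.015). The wild-type call was lost without lesioned library 1 (0.44, adjusted p = 0.072), intact library 2 (0.50, adjusted p = 0.065) or intact library 3 (0.52, adjusted p = 0.059). The summed level of 8 oligodendrocyte markers was 3536 to 3874 CPM in DKK1 lesioned libraries, against 2769 to 3137 in DKK1 intact ones, and 3530 to 3859 CPM in wild-type lesioned libraries, against 2820 to 3096 in intact ones. Of these 8, 6 rose in each genotype. The choroid plexus, which makes both Trf and Cp, was seen through 6 markers that summed to 192 to 433 CPM in DKK1 lesioned libraries, against 125 to 198 in DKK1 intact ones, and to 220 to 413 CPM in wild-type lesioned libraries, against 77.3 to 147 in intact ones. Of these 6, 1 rose in DKK1 mice and 6 in wild type. The part of either list in the changes of Trf and Cp was not tested.

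Tfrc (chr16:32608896-32632794, plus strand), the receptor that takes up transferrin and the one gene here with the element in its 3′ UTR, had 97.7, 77.0 and 73.6 CPM in the DKK1 lesioned hemisphere, against 125, 99.3 and 81.7 in the DKK1 intact one. Wild-type levels were 115, 85.8 and 80.8 CPM in the lesioned hemisphere, against 123, 83.2 and 90.3 in the intact one. All 4 groups overlapped, and library 1 was the highest in each. The summed level of 6 endothelial markers, of cells that carry much of this receptor, was 369 to 407 CPM in DKK1 lesioned libraries, against 264 to 288 in DKK1 intact ones, and 321 to 348 CPM in wild-type lesioned libraries, against 271 to 322 in intact ones, and that of 7 neuronal markers was 2624 to 2998 CPM in DKK1 lesioned libraries, against 3573 to 3901 in DKK1 intact ones, and 2520 to 3126 CPM in wild-type lesioned libraries, against 3540 to 3715 in intact ones. The log2 difference was -0.30 ± 0.20 in DKK1 mice (adjusted p = 0.23) and -0.08 ± 0.20 in wild type (adjusted p = 0.79). With the library number as a fixed replicate block, which takes out what libraries of 1 number share, Tfrc passed as lower in the DKK1 lesioned hemisphere, at -0.29 (adjusted p = 0.0012), and with the number as a random block it did not (-0.29, adjusted p = 0.096). On the TPM scale Tfrc over Fth1 was 0.042, 0.027 and 0.027 in DKK1 lesioned libraries, against 0.074, 0.059 and 0.043 in DKK1 intact ones, and 0.052, 0.042 and 0.039 in wild-type lesioned libraries, against 0.081, 0.047 and 0.050 in intact ones.

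Slc40a1 (chr1:45908070-45925594, minus strand), ferroportin, the iron exporter, had 25.4, 29.9 and 25.0 CPM in the DKK1 lesioned hemisphere, against 16.95, 9.92 and 8.89 in the DKK1 intact one. In wild type it had 22.5, 20.6 and 16.1 CPM in the lesioned hemisphere, against 17.4, 10.7 and 9.29 in the intact one. Library 1 was far above the other pair in both intact groups, and in wild type the hemispheres overlapped. On the log2 scale the change was 1.17 ± 0.27 in DKK1 mice (adjusted p = 0.0035) and 0.66 ± 0.26 in wild type (adjusted p = 0.070). The wild-type value passed with the fixed and the random replicate block (0.69 in both, adjusted p = 0.018 and 0.014), with DESeq2 (0.65, adjusted p = 0.043) and with limma-voom (0.68, adjusted p = 0.044), as it did without wild-type intact library 1 (0.98, adjusted p = 0.012).

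Cp (chr3:19957054-20009750, plus strand), the ferroxidase that works beside ferroportin and is anchored on astrocytes, had 90.2, 150 and 125 CPM in the DKK1 lesioned hemisphere, against 16.8, 24.4 and 19.97 in the DKK1 intact one. Wild-type levels were 91.6, 67.6 and 72.3 CPM in the lesioned hemisphere, against 23.9, 18.6 and 20.9 in the intact one. The lesioned and intact libraries were far apart in both genotypes. The log2 fold change was 2.57 ± 0.20 in DKK1 mice (adjusted p = 3.4e-06), 5.94-fold, and 1.87 ± 0.20 in wild type (adjusted p = 6.3e-05), 3.65-fold. The summed level of 7 astrocyte markers was 3072 to 3484 CPM in DKK1 lesioned libraries, against 2603 to 2980 in DKK1 intact ones, and 3199 to 3298 CPM in wild-type lesioned libraries, against 2711 to 3034 in intact ones. Slc1a2, the largest of these 7, was at 1376 to 1604.5 CPM in DKK1 lesioned libraries, against 1602 to 1951 in intact ones. In wild type it was at 1501 to 1754 CPM, against 1803 to 1956. Gfap was at 734 to 797 CPM in DKK1 lesioned libraries, against 212 to 269 in intact ones. In wild type Gfap was at 530 to 733 CPM, against 143 to 223. Of these 7, 5 rose and 1 fell in DKK1 mice and 4 rose in wild type, with median log2 changes of 0.18 and 0.23, and their part in the change of Cp was not tested.

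**Figure D2:**
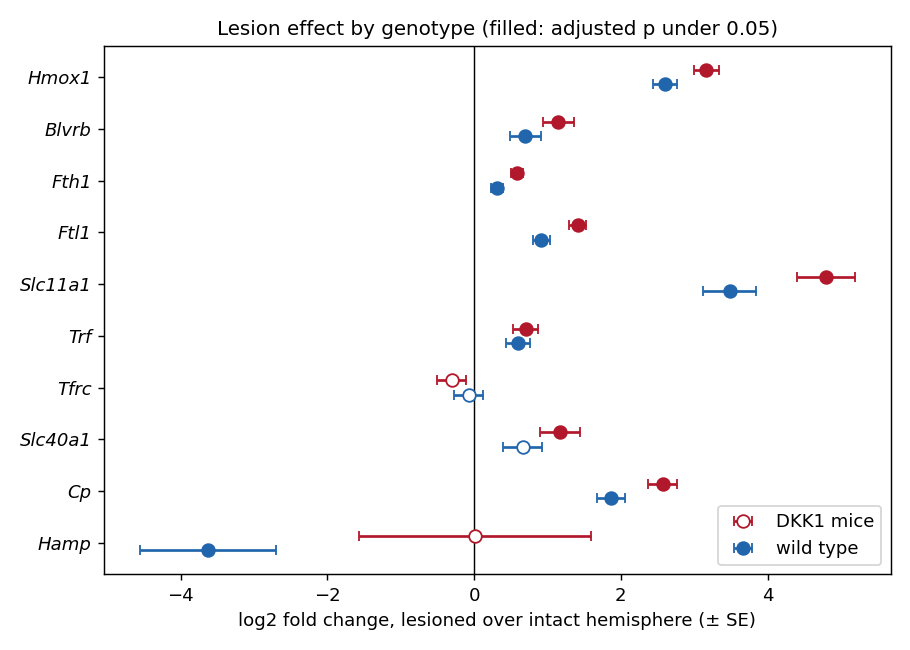
Log2 fold change of each gene, lesioned over intact hemisphere, with its SE, in DKK1 mice (red) and wild type (blue). Filled points passed an adjusted p of 0.05, and Slc11a1 had the largest values (4.80 and 3.48) while Tfrc passed in neither genotype.

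The summed level of red blood cell markers overlapped between hemispheres. The 6 markers, among them the globins Hba-a1 and Hbb-bs, summed to 16.2 to 35.5 CPM in DKK1 lesioned libraries, against 13.4 to 35.5 in DKK1 intact ones, and to 12.7 to 49.6 CPM in wild-type lesioned libraries, against 10.8 to 46.4 in intact ones. Slc4a1, the anion exchanger of the red cell membrane, was the 1 marker of 6 that rose in each genotype, with no overlap. It ran from 0.248 to 1.42 CPM in DKK1 lesioned libraries, against 0 to 0.218 in DKK1 intact ones, and from 0.571 to 2.18 CPM in wild-type lesioned libraries, against 0 to 0.15 in intact ones. Slc4a1 passed the filter on low counts through lesioned libraries alone, so its calls and its lack of overlap carry that choice. Of all genes tested, 32.1% were apart and higher in DKK1 mice and 26.5% in wild type.

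Read per length, the deposited TPM put the ferritins above the other genes, with Trf next. In the DKK1 lesioned hemisphere the means were 777 ± 76.4 TPM for Fth1, 577 ± 61.3 for Ftl1, 228 ± 17.3 for Trf, 49.1 ± 9.44 for Hmox1, 43.2 ± 5.25 for Slc11a1, 24.4 ± 3.78 for Tfrc, 22.1 ± 0.352 for Blvrb and 11.5 ± 1.07 for Slc40a1 (SD, n = 3). In the wild-type intact hemisphere Fth1 was again highest at 497 ± 36.6 TPM, Ftl1 stood at 209 ± 2.02 and Trf at 132 ± 27.5, and Slc11a1 was lowest of these 8 genes at 2.46 ± 1.03 (SD, n = 3). Hmox1, at 5.53 ± 0.181 TPM there, was below Tfrc at 29.1 ± 6.75 (SD, n = 3), and in the DKK1 lesioned hemisphere above it. Cp is left out of this order because the TPM table holds another transcript of it. For Hmox1, Fth1, Ftl1, Slc40a1, Slc11a1, Trf, Cp and Blvrb the order of group means was DKK1 lesioned, wild-type lesioned, then both intact groups, which overlapped for each of these genes.

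Between genotypes, the lesioned hemisphere of DKK1 mice had more Ftl1 mRNA than that of wild type, and no other iron gene passed the test. Ftl1 averaged 385 ± 40.7 CPM in the DKK1 lesioned hemisphere and 265 ± 49.98 in the wild-type one (SD, n = 3), a log2 fold change of 0.54 ± 0.11 (adjusted p = 0.035), 1.45-fold. Of all genes tested, 1.52% were called higher and 0.846% lower, against 1 and 0 of the 10. Fth1, Ftl1 and Slc40a1 had every DKK1 library above every wild-type one, where 13.3% of all genes tested did. The median log2 difference of the 10 genes was 0.45, against 0.02 over all genes tested, again for genes chosen with earlier results known. An unadjusted p under 0.05 was found for 5 of the 10, Hmox1, Fth1, Ftl1, Cp and Blvrb. The share of all genes at an unadjusted p under 0.05 was not computed. This count and the later ones at that threshold are thus not read as results about these genes.

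The other genes had the following differences in the lesion. Hmox1 averaged 53.4 ± 10.2 CPM in DKK1 mice and 36.7 ± 7.31 in wild type (SD, n = 3), 0.54 ± 0.15 on the log2 scale (adjusted p = 0.080). Fth1 averaged 504 ± 49.2 CPM in DKK1 mice and 403 ± 17.3 in wild type (SD, n = 3), 0.32 ± 0.08 on the log2 scale (adjusted p = 0.072). Cp averaged 122 ± 30.0 CPM in DKK1 mice and 77.2 ± 12.7 in wild type (SD, n = 3), 0.65 ± 0.18 on the log2 scale (adjusted p = 0.087). The differences for Slc11a1, Blvrb, Slc40a1 and Trf were 0.64 ± 0.31, 0.47 ± 0.20, 0.44 ± 0.26 and 0.20 ± 0.16, and that for Tfrc was -0.18 ± 0.20, with adjusted p between 0.21 and 0.64.

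These values turned on single libraries. The Ftl1 call was lost without DKK1 lesioned library 2 (adjusted p = 0.15) or 3 (adjusted p = 0.13), and without wild-type lesioned library 2 (adjusted p = 0.13) or 3 (adjusted p = 0.17), while its log2 fold change stayed between 0.45 and 0.70. Without wild-type lesioned library 1, 6 of the 10 genes passed. They were Hmox1 (0.72, adjusted p = 0.0069), Blvrb (0.80, adjusted p = 0.0061), Fth1 (0.36, adjusted p = 0.029), Ftl1 (0.70, adjusted p = 0.00058), Slc11a1 (1.08, adjusted p = 0.019) and Cp (0.80, adjusted p = 0.027). Calls over all genes went up too, to 2551 without that library, against 417 with all libraries. Without DKK1 lesioned library 1, 4 genes passed: Ftl1, Hmox1 (0.69, adjusted p = 0.015), Fth1 (0.40, adjusted p = 0.021) and Cp (0.83, adjusted p = 0.022). Calls over all genes were then 1070. The sample labels set neither library apart, but the raw count column of wild-type lesioned library 1 is the only one of 12 whose name lacks the word flip, which its TPM column has. What that word marks is not given in the sources used here. Over the 9591 genes with at least 100 counts in that library, its counts per length and its TPM differed by no more than a constant factor (within 0.1 on the log2 scale for 100% of them), as in the other 11 libraries. Microglial markers summed to 1015 to 1155 CPM in DKK1 lesioned libraries, against 1076, 647 and 772 CPM in wild-type lesioned ones. None of those 8 markers was called between genotypes, and their median log2 difference was 0.36. The border macrophage markers summed to 41.2 to 67.1 CPM in DKK1 lesioned libraries, against 25.7 to 40.7 in wild-type lesioned ones, without overlap, with 0 of 6 called and a median log2 difference of 0.65. The endothelial markers summed to 369 to 407 CPM in DKK1 lesioned libraries, against 321 to 348 in wild-type lesioned ones, without overlap, with 1 of 6 called and a median log2 difference of 0.29. The part of these lists in the genotype differences was not tested.

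**Figure D3:**
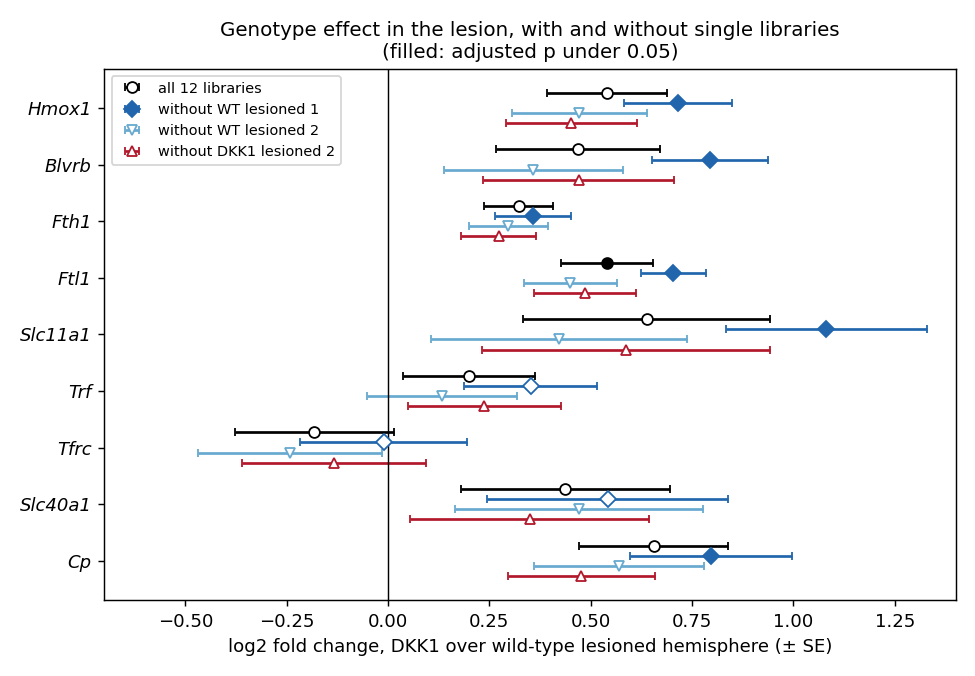
Log2 fold change in the lesioned hemisphere, DKK1 over wild type, with its SE, for 9 genes with all libraries and with 1 library left out. Filled points passed an adjusted p of 0.05: with all libraries only Ftl1 did, and without wild-type lesioned library 1 (diamonds) Hmox1, Blvrb, Fth1, Ftl1, Slc11a1 and Cp did.

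In the intact hemisphere no iron gene was called between DKK1 and wild type by edgeR, where 0.369% of all genes were called higher and 0.511% lower. Hamp, described with its library values below, was the only one of the 10 with an unadjusted p under 0.05. Hamp passed the filter on low counts through wild-type libraries alone, so this p carries that choice. The wild-type intact libraries highest in Hamp also held liver transcripts, so this p is not read as a result about genotype. Hmox1 averaged 5.94 ± 0.390 CPM in DKK1 and 6.03 ± 0.109 in wild-type intact hemispheres (SD, n = 3), and Ftl1 144 ± 6.38 CPM in DKK1 and 140 ± 3.20 in wild-type ones (SD, n = 3). For the 8 genes other than Hamp and Slc11a1 the log2 differences lay between -0.07 and 0.09, and that of Slc11a1 was -0.68 ± 0.43.

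The test of whether the lesion effect differed between genotypes passed for none of the 10, and for 0.00568% of all genes. The lesion effect in DKK1 mice minus that in wild type was 1.31 ± 0.53 for Slc11a1 (adjusted p = 0.49), 0.70 ± 0.27 for Cp (adjusted p = 0.48), 0.56 ± 0.23 for Hmox1 (adjusted p = 0.49), 0.50 ± 0.16 for Ftl1 (adjusted p = 0.44) and 0.27 ± 0.12 for Fth1 (adjusted p = 0.51), all on the log2 scale. These 5 had an unadjusted p under 0.05, for which no share over all genes was computed. With the library number as a fixed replicate block, Slc11a1 (1.33, adjusted p = 0.014) and Cp (0.70, adjusted p = 0.0060) passed, and calls over all genes came to 288, against 1 without the block. With the number as a random block neither passed (adjusted p = 0.39 and 0.27), with 2 calls over all genes. Without wild-type lesioned library 1, Ftl1 passed (0.66, adjusted p = 0.021), with 393 calls over all genes.

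Hamp (chr7:30942369-30944029, minus strand) had almost no counts outside some wild-type libraries. It had 3, 2 and 3 counts in DKK1 lesioned libraries, against 2, 2 and 3 in DKK1 intact ones. In wild type it had 12, 3 and 3 counts in lesioned libraries, against 171, 46 and 5 in intact ones. Only wild-type intact libraries 1 and 2 stood far above the rest, at 6.42 and 1.97 CPM, against 0.211 CPM in intact library 3. The fitted log2 fold change, lesioned over intact, was -3.63 ± 0.93 in wild type (adjusted p = 0.011) although the groups overlapped, and 0.01 ± 1.58 in DKK1 mice (adjusted p = 0.996), where both sides hold no more than 3 counts a library and no difference could be seen. Without wild-type intact libraries 1 and 2, an alternative chosen after seeing the data, it turned to 0.12 (adjusted p = 0.94). Between genotypes in the intact hemisphere it was -4.74 ± 1.08 (adjusted p = 0.089), with every DKK1 library below every wild-type one, as 6.07% of all genes were, and -0.98 (adjusted p = 1) without wild-type intact libraries 1 and 2. Without intact library 3, which leaves in wild type the pair of libraries high in Hamp, it was -5.28 (adjusted p = 0.0022). Hamp passed the filter on low counts through wild-type libraries alone, so its tests in these comparisons carry that choice. Hamp and its near copy Hamp2 can share reads, which makes the split between them uncertain.

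Liver transcripts moved with Hamp. The 15 liver genes summed, from Alb and the apolipoproteins to the fibrinogen chains, came to 16.3, 14.7 and 13.8 CPM in DKK1 lesioned libraries, against 14.1, 14.2 and 15.3 in DKK1 intact ones. In wild type they came to 24.6, 15.8 and 14.4 CPM in lesioned libraries, against 278, 95.4 and 21.4 in intact ones. All 15 were highest in wild-type intact library 1, and Alb alone was at 87.8, 31.7 and 5.45 CPM in the wild-type intact libraries. The list was chosen after its values were seen, and its part in the Hamp level was not tested. Hpx (hemopexin, the plasma heme binder), a gene of the wider iron lists, had the same libraries on top: 1.196, 0.674 and 0.761 CPM in wild-type lesioned libraries, against 9.08, 2.78 and 1.06 in intact ones. Its log2 fold change in wild type of -2.29 (adjusted p = 0.013) came to -0.26 (adjusted p = 0.71) without wild-type intact libraries 1 and 2.

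**Figure D4:**
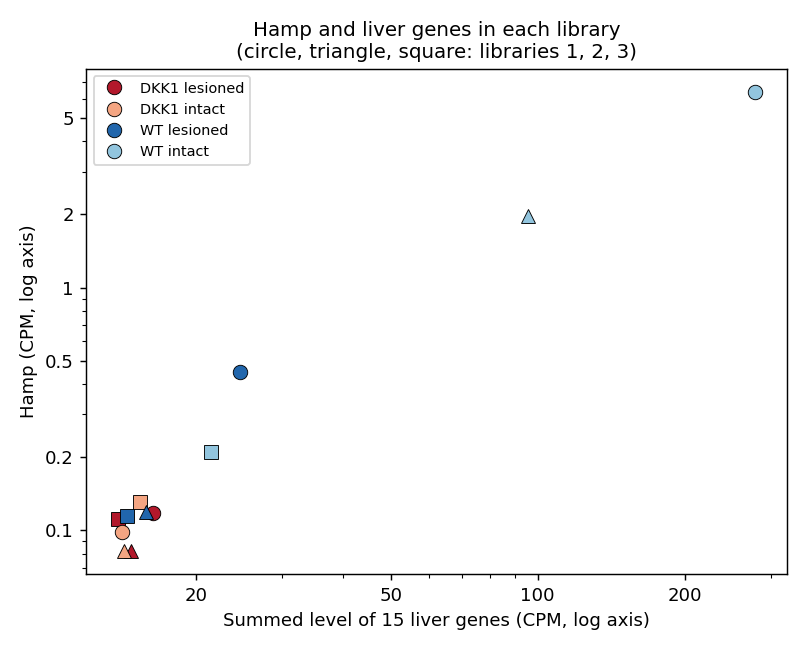
Hamp level against the summed level of 15 liver genes in each library, both in CPM on log axes, with circles, triangles and squares for libraries 1, 2 and 3. Wild-type intact libraries 1 (278 and 6.42 CPM) and 2 (95.4 and 1.97 CPM) lie apart from the rest.

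Genes whose levels ran most like those of an iron gene over the 12 libraries were ranked by the mean absolute difference of log2 CPM, each gene centred on its own mean, among 14890 genes. For Hmox1 they were Rab32, a GTPase of lysosome-related organelles (0.11), Was, an actin regulator of blood cells (0.13), and Ncf1, a subunit of the phagocyte NADPH oxidase (0.13). For Ftl1 they were Ctsb, a lysosomal protease (0.048), the long non-coding RNA Neat1 (0.054) and Lgmn, another lysosomal protease (0.063). For Trf they were Gna12 (0.063), Lgi4 (0.074) and BC034090 (0.079). For Hamp they were Alb (0.25), Cyp2c29 (0.27) and Ces1c (0.31), all genes of the liver. These likenesses are a description over libraries that share the same lesion contrast.

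Of 75 further genes of iron and heme handling, all were in the table and 72 were tested. In DKK1 mice 30 were higher and 8 lower in the lesioned hemisphere, and in wild type 22 were higher and 6 lower. Of all genes tested 27.5% were higher and 22.6% lower in DKK1 mice, and 21.2% higher and 15.9% lower in wild type, and the counts of single lists below stand against these shares. Their median log2 change was 0.14 in DKK1 mice and 0.08 in wild type, against 0.01 and 0.01 over all genes tested. These lists too were chosen with earlier results of these data known. The wild-type count of higher genes came to 13 without wild-type lesioned library 1, 14 without intact library 2 and 14 without intact library 3. It was 14 without both wild-type libraries numbered 1, and 12 without wild-type intact libraries 1 and 2. Calls over all genes in either direction in these 5 fits came to 4457, 4709, 5289, 4407 and 2110, against 6546 with all libraries.

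Of iron uptake and transport genes, 8 of 13 tested were higher in each genotype, and 2 were lower in DKK1 mice and 1 in wild type. Steap4, a metalloreductase, had 37.9, 69.4 and 50.3 CPM in the DKK1 lesioned hemisphere, against 0.441, 1.19 and 0.567 in the DKK1 intact one, and 43.1, 21.8 and 29.6 CPM in the wild-type lesioned hemisphere, against 2.44, 0.556 and 0.929 in the intact one. Its log2 fold change was 6.12 ± 0.50 in DKK1 mice and 4.55 ± 0.46 in wild type (adjusted p = 4.8e-06 and 5.6e-05). Lcn2, lipocalin 2, which binds siderophores that carry iron, rose by 4.61 in DKK1 mice and 3.56 in wild type. Scara5, a receptor for ferritin, rose by 4.07 and 3.37 on the log2 scale. Every lesioned library was above every intact one for Steap4, Lcn2 and Scara5. Of neutrophils, which also make Lcn2, 8 markers summed to 6.77 to 8.79 CPM in DKK1 lesioned libraries, against 0.637 to 2.62 in DKK1 intact ones, and to 3.96 to 9.94 CPM in wild-type lesioned libraries, against 0.812 to 1.77 in intact ones. Of the 3 tested, S100a8, S100a9 and Cxcr2, all 3 rose in each genotype, with median log2 changes of 2.91 in DKK1 mice and 2.98 in wild type. S100a8 and Cxcr2 passed the filter on low counts through lesioned libraries, where they are high. The count of 3 and the medians carry that choice. The rest of the 8 markers had too few counts to be tested. Among them Ngp and Retnlg, at no more than 0.634 CPM, overlapped between hemispheres in both genotypes. Mpo and Elane, at no more than 0.335 and 0.078 CPM in lesioned libraries, overlapped in wild type only. Ly6g, a defining marker, had no count in 10 of the 12 libraries, and the part of these cells in the Lcn2 level was not tested.

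Among 13 genes of heme breakdown, binding and transport, 9 were higher in DKK1 mice, and 4 were higher and 1 lower in wild type. Bach1, the heme-sensing repressor of Hmox1, rose by 1.21 ± 0.11 in DKK1 mice and 0.98 ± 0.11 in wild type (adjusted p = 6.8e-06 and 8.7e-05), and the heme exporter Flvcr1 by 0.73 ± 0.12 and 0.59 ± 0.12 (adjusted p = 0.00041 and 0.0030). The gene lower in wild type was Hpx. Hp (haptoglobin, the binder of free haemoglobin), named after its values were seen, had 10.6, 15.1 and 19.0 CPM in the DKK1 lesioned hemisphere, against 0.343, 0.287 and 0.698 in the DKK1 intact one, a log2 change of 5.06 ± 0.74 (adjusted p = 0.00024). In the wild-type lesioned hemisphere it had 11.6, 5.75 and 11.2 CPM, against 10.7, 3.46 and 1.39 in the intact one, where libraries 1 and 2 are those with liver transcripts (0.86, adjusted p = 0.25). Heme synthesis changed little: Alas1, its rate-limiting enzyme outside red cells, rose by 0.30 in DKK1 mice and 0.14 in wild type, Ppox by 0.36 and 0.21, and Uros fell by 0.18 in DKK1 mice and by 0.21 in wild type. Those wild-type changes of Alas1 and Ppox lost their call in 5 of the 6 fits that left out 1 library, and that of Uros in 4, while the DKK1 change of Uros lost its call in 5 of 6.

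Of 10 genes of iron sensing and hepcidin control, 4 were higher and 1 lower in DKK1 mice, and 3 higher and 1 lower in wild type. Hfe, a partner of the transferrin receptors, averaged 28.7 ± 2.95 CPM in the DKK1 lesioned and 5.47 ± 1.36 in the DKK1 intact hemisphere, and 21.9 ± 6.29 CPM in the wild-type lesioned and 6.67 ± 1.49 in the intact one (SD, n = 3). Its log2 fold change was 2.39 ± 0.24 in DKK1 mice and 1.72 ± 0.23 in wild type (adjusted p = 1.4e-05 and 0.00027). Bmp6, the ligand that raises hepcidin in the liver, rose by 1.46 in DKK1 mice and 0.87 in wild type. Tmprss6, a protease that lowers hepcidin in the liver, fell by 0.99 in DKK1 mice and by 1.403 in wild type.

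The list of ferroptosis defence and Nrf2 targets had 4 of 11 genes higher and 1 lower in each genotype. Nfe2l2, which encodes Nrf2, the activator of Hmox1 and of ferritin genes under oxidative stress, averaged 91.7 ± 11.3 CPM in the DKK1 lesioned and 21.1 ± 2.39 in the DKK1 intact hemisphere, and 66.7 ± 9.25 CPM in the wild-type lesioned and 23.3 ± 1.74 in the intact one (SD, n = 3). Its log2 fold change was 2.12 ± 0.13 in DKK1 mice and 1.52 ± 0.12 in wild type (adjusted p = 1.1e-06 and 2.1e-05). Slc7a11, the cystine importer, rose by 1.92 in DKK1 mice and 1.31 in wild type. Srxn1, sulfiredoxin, another Nrf2 target, fell by 0.19 in DKK1 mice and by 0.23 in wild type, so members of the list moved in both directions. In the DKK1 comparison Srxn1 missed the threshold without DKK1 lesioned library 3 (adjusted p = 0.053).

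Of 3 tested genes of iron storage and release, 2 were higher in DKK1 mice and 1 in wild type, and none was lower. Ncoa4, the receptor that hands ferritin to autophagy, rose by 0.33 in DKK1 mice and 0.23 in wild type, and the wild-type call was lost in 5 of the 6 fits that left out 1 library. Of 12 mitochondrial genes, 1 was higher and 3 lower in DKK1 mice, and 0 higher and 1 lower in wild type. Isca1, an iron-sulfur cluster assembly factor, fell by 0.30 in both genotypes. Heph, the tested gene of the export list, passed in neither genotype.

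**Figure D5:**
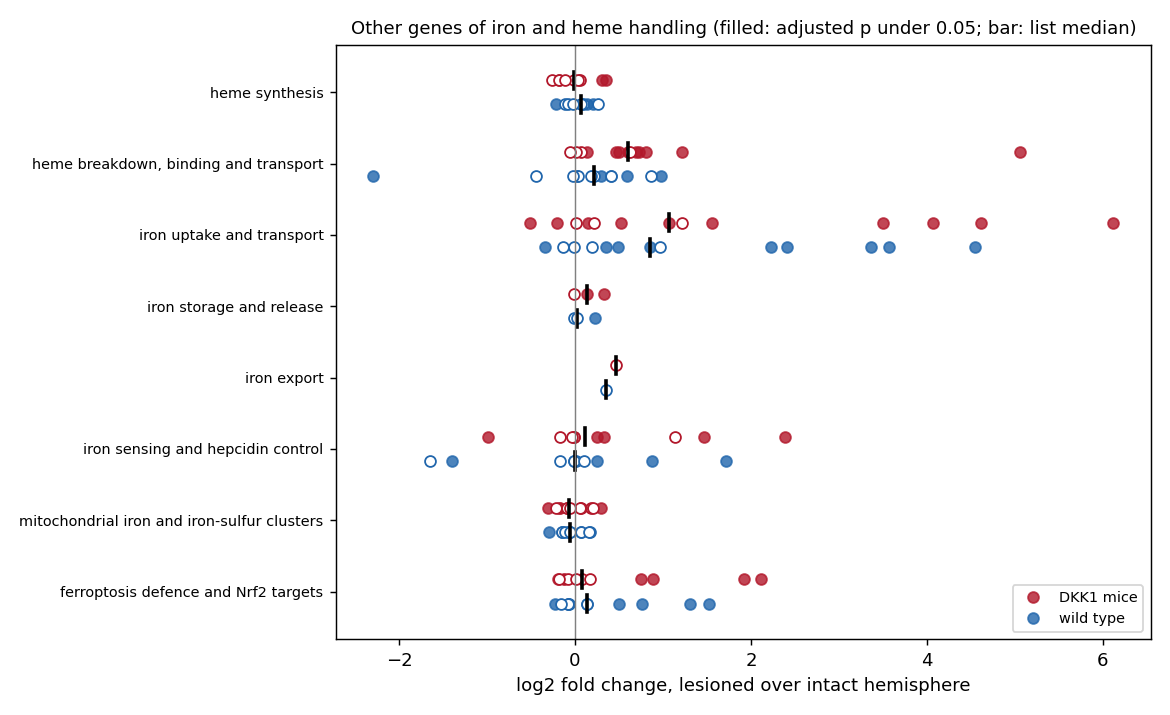
Log2 fold change, lesioned over intact hemisphere, of the 72 tested genes of 8 further lists, in DKK1 mice (red, upper row of each list) and wild type (blue, lower row), with a bar at each list's median. Filled points passed an adjusted p of 0.05, and the highest value is that of Steap4 of the uptake list, 6.12 in DKK1 mice.

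Between genotypes in the lesioned hemisphere 2 of the 72 further genes were higher and none was lower by edgeR, with 17 at an unadjusted p under 0.05, where 1.52% of all genes were higher. They were Alas1, at 84.6 ± 2.41 CPM in DKK1 mice and 73.9 ± 3.66 in wild type (SD, n = 3), and Slc48a1, a heme transporter of lysosomes, at 153 ± 1.45 CPM in DKK1 mice and 135 ± 2.71 in wild type (SD, n = 3). Their log2 fold changes were 0.19 ± 0.05 and 0.18 ± 0.04 (adjusted p = 0.048 and 0.039). Both calls were lost without DKK1 lesioned library 2 or 3, or wild-type lesioned library 2 or 3 (adjusted p from 0.11 to 0.21). Both were also lost with the other scaling factors tried, RLE (adjusted p = 0.060 and 0.055) and upper-quartile (adjusted p = 0.076 and 0.080). The same held in edgeR with only the 2 groups compared (adjusted p = 0.26 and 0.24) and without a filter (adjusted p = 0.093 and 0.099). Both limma fits on TPM lost them too (adjusted p from 0.067 to 0.11). With the fixed replicate block Alas1 missed the threshold (adjusted p = 0.053). Without wild-type lesioned library 1 the count was 10, with 2551 calls over all genes. In the intact hemisphere none of the 72 was called by edgeR (4 at an unadjusted p under 0.05, and 2 lower by DESeq2), and none in the test of the difference between lesion effects (10 at an unadjusted p under 0.05, and 1 higher by DESeq2). With the fixed replicate block 3 of the 72 passed that last test, with 288 calls over all genes, and with the random block 0 did, with 2 calls over all genes. The counts at an unadjusted p have no share over all genes beside them and are not read as results about these lists.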

How the data were processed

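RNA was taken from 12 brain samples, and per the labels' protocols mRNA libraries were made with a directional kit. The authors deposited raw counts per gene (1 transcript each) and TPM. HOMER 4.11, STAR 2.7.0f, DESeq2 and mm10 are named in the submitters' processing notes, without their roles or whether counting was by strand.

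Groups came from the labels. Counts were filtered with filterByExpr by group (minimum count 10), scaled by TMM (factors 0.963 to 1.04) and fitted in 1 model of 12 libraries with edgeR 4.0.16 in R 4.3.3 (robust quasi-likelihood, two-sided, Benjamini-Hochberg over 17612 genes, threshold 0.05). CPM are TMM-scaled, and TPM serve levels between genes. The fit was tested on simulated counts.

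The 10 genes and all lists were chosen with earlier results of these data known, the liver list and 2 leave-out alternatives after seeing the values. Named further genes are up to 3 per list with the smallest p among those passing in the wild-type lesion effect, and up to 2 in each genotype effect.

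The labels do not tie equal numbers to 1 animal. Deviations of same-numbered hemispheres from their group means correlated at 0.276, 0.125 and 0.105 in DKK1 mice and 0.487, 0.310 and 0.297 in wild type. Each was over the 0.1 set for pairing. Libraries of different number reached 0.172 in DKK1 mice and 0.152 in wild type. Equal numbers across genotypes, which are different animals, reached 0.257 in intact and 0.111 in lesioned hemispheres. Passing 0.1 thus does not show that numbers mark pairs. The main fit held no block, and blocks by number were alternatives only. Blocked fits took the number as a fixed (edgeR) or random (limma-voom) block. For lesion effects and their difference, both blocks joined same-numbered hemispheres within a genotype. For genotype effects the fixed block joined equal numbers across genotypes, which are different animals, and the random block stayed within a genotype. Alternatives used limma 3.58.1 and DESeq2 1.42.0. One red blood cell marker is not reported here and was left out of its list.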

Additional observations from a re-analysis of the deposited data

How the results depend on the processing

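The count of 8 genes higher in the DKK1 lesion was 8 in every alternative; with the fixed replicate block 1 gene, Tfrc, was also lower, and with the random block 0 were. In wild type the count of higher genes (7) was 8, with Slc40a1, under DESeq2, limma-voom, both replicate blocks and both TPM fits, 6 with only the 2 groups compared, 5 to 7 with 1 library left out and 4 without intact libraries 1 and 2, where 1 library is assumed to vary like the other groups. The count of lower genes there (1, Hamp) was 0 with limma-voom, with only the 2 groups compared and with the random replicate block. All-gene calls in wild type were 6984 with DESeq2, 6431 with limma-voom and 5105 with only the 2 groups compared, against 6546. With the fixed and random block they were 7982 and 8242, and in the TPM fits 6074 and 6115. Without both wild-type libraries 1, and with a 1 CPM filter, Hamp fell to the filter on low counts and was not tested. Without intact libraries 1 and 2 its log2 change was 0.117. In the lesion between genotypes the count of higher genes (1) was 4 with DESeq2, 2 with the random replicate block, 0 with only the 2 groups compared, 0 to 6 with 1 library left out and 6 without both wild-type libraries 1. Calls over all genes in either direction moved too, from 417 to 1145, 681 and 97 in the first 3 of these settings. They were 119 to 2551 with 1 library left out and 3244 without both wild-type libraries 1. In the intact hemisphere the count of lower genes (0) was 1 with DESeq2 and with the fixed replicate block, and 0 to 1 with 1 library left out. All-gene calls there were 267 with DESeq2, 168 with that block and 94 to 197 with 1 library left out, against 155. For the difference of lesion effects the count was 2 higher with the fixed replicate block, 0 to 1 with 1 library left out and 1 without both wild-type libraries 1. All-gene calls were then 288, 0 to 393 and 264, against 1 in the main fit. The replicate block changed no other call of the 10 genes than those given here and in the results. The causes were not tested.

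Log2 differences that changed sign were those near 0 or of Hamp. The Hamp lesion effect in DKK1 mice was -0.002 with RLE and -0.028 with upper-quartile factors, -0.007 with DESeq2, -0.012 with limma-voom, -0.020 without a filter, -0.001 and -0.015 with the fixed and random replicate block, and -0.166 to 0.182 with 1 library left out. Without wild-type intact libraries 1 and 2, values were 0.117 for Hamp and 0.059 for Tfrc in the wild-type lesion effect, 0.001 for Hmox1, -0.016 for Fth1 and 0.368 for Slc40a1 between genotypes in the intact hemisphere, and -0.069 for Trf and -0.135 for Hamp in the difference of lesion effects. Without both wild-type libraries 1 the intact differences were -0.017 for Fth1, 0.248 for Slc40a1 and 0.050 for Cp. With 1 library left out, Tfrc ran from -0.249 to 0.113 in the wild-type lesion effect and Trf from -0.065 to 0.258 in the difference of lesion effects. The intact genotype differences then ran from -0.063 to 0.034 for Hmox1, -0.017 to 0.096 for Fth1, -0.407 to 0.250 for Slc40a1, -0.126 to 0.235 for Tfrc, -0.042 to 0.265 for Trf, -0.196 to 0.073 for Cp and -0.067 to 0.162 for Blvrb. With 3 libraries a group, and 2 to 3 Hamp counts in most, small differences could not be seen at this depth.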
